A study of Mus musculus with 16 samples.

Results

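The Hox genes of paralog groups 1 to 9 and 12, with the noncoding gene Hoxb5os, were followed across 4 kidney genotypes. Membership was set by the gene's name alone: every non-control probe whose RefSeq accession belongs to such a gene was eligible, and 29 genes on 36 probes are reported, out of 22911 named genes on the array. Of these, 28 genes on 35 probes passed the filter on dim probes, against 15646 genes that passed in all. The exception was Hoxb1, which was not well above background on any of the 16 arrays. The members lie in 4 clusters, HoxA on chromosome 6, HoxB on chromosome 11, HoxC on chromosome 15 and HoxD on chromosome 2. The genes of groups 10, 11 and 13 are outside the set and serve only as a comparison.

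Total RNA came from whole kidneys of C57BL/6 mouse embryos at embryonic day 17.5, with 4 arrays in each of 4 genotypes that the design text calls biological replicates. The double-KO group lacked Ezh2 in Six2-positive nephron progenitors, the stem cells that form nephrons, and lacked both germline copies of Ezh1. The Ezh1-het group carried the same Ezh2 deletion with 1 germline Ezh1 copy lost, the Ezh2-KO group carried the Ezh2 deletion with wild-type Ezh1, and the control group was wild type and is labelled as kidney pairs. The Ezh2 deletion is limited to the Six2 lineage while the RNA is of the whole organ, so each value averages deleted and undeleted cells, and fewer cells of a type cannot be told apart from less RNA per cell. The Ezh1 loss is in the germline and reaches every cell. Each array set its sample in Cy5 against RNA of control 1 in Cy3, so a level below is a log2 ratio to that RNA, and control 1 reads near 0 because it was set against itself.

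Hox genes encode homeodomain transcription factors that give cells along the head-to-tail axis their regional identity. Their order along a chromosome cluster mirrors the order in which they act, with group 1 the most anterior and earliest and group 13 the most posterior and latest. Genes that a cell does not use are held silent by Polycomb complexes, of which PRC2 places the repressive mark H3K27me3 through its catalytic subunits Ezh2 and Ezh1. In the kidney, group 11 genes specify the nephron-forming mesenchyme, and the anterior and central genes mark the axial level from which the kidney's lineages came.

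Promoters of Hox genes are known for dense CG dinucleotides, the sequence feature on which Polycomb and trithorax complexes gather. RefSeq promoters on GRCm38.p6, 250 bases before to 50 after the start, were in the table for 16 of the 29 members. Shown 5′ to 3′ with CG in capitals are 2 members that were called below, Hoxd1 (chr2:74762730-74763029, plus strand) and Hoxa6 (chr6:52208623-52208922, minus strand), and Hoxb1 (chr11:96365508-96365807, plus strand), the member with no level above background.
Hoxd1: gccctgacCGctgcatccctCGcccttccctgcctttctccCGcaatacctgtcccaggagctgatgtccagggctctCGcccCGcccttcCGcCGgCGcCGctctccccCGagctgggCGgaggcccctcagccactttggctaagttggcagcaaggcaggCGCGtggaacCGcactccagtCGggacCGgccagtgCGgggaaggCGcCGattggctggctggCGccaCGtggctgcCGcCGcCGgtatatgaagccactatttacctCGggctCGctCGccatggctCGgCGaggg
Hoxa6: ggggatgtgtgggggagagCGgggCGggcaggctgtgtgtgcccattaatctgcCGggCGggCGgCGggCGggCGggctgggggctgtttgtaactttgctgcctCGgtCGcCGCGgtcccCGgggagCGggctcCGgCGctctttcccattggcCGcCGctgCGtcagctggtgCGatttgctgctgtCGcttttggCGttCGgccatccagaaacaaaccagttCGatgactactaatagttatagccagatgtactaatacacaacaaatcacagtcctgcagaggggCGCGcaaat
Hoxb1: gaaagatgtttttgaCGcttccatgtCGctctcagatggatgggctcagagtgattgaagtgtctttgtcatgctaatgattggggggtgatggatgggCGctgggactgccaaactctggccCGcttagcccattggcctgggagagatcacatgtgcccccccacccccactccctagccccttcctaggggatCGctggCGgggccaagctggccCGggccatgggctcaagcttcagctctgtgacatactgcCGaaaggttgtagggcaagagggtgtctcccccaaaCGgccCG
The Hoxd1 window held 29 CG, the Hoxa6 window 26 and the Hoxb1 window 10. Over the 16 member promoters the median was 13 CG, against a median of 7 over all 32851 promoters of the table, and 13 of the 16 lay above that value. Letters were also searched for 3 short motifs on both strands, each on its own, so matches of different motifs may share bases. AGGTCA, a core site of retinoic acid receptors, stood in 6 of 16 member promoters (37.5%) against 16.3% of all promoters. TATAAA stood in 2 of 16 (12.5%) against 13.6%, and TGATNNAT, the site bound by Hox and Pbx together, in 3 of 16 (18.8%) against 8.85%. A match is a description of the letters and not a binding site. The printed windows of Hoxd1 and Hoxa6 held none of the 3, and that of Hoxb1 held TGATNNAT.

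Before the results, some arrays stood apart. Control 2 had the weakest Cy5 signal, 5.21 times background at the 75th percentile against up to 16.6 on Ezh2-KO 4, and 55.1% of probes were well above background there against up to 65.1%. Over the measured members the median level was -0.33 on control 2, -0.26 on control 4 and 0.25 on control 3. Members were more scattered among controls than in the knockouts. Their median SD was 0.20 in the double-KO group, 0.18 in the Ezh1-het group, 0.22 in the Ezh2-KO group and 0.37 in the controls, and 19 of 28 members had their largest SD in the controls. Over all genes the median SD was 0.15, 0.12, 0.13 and 0.17 in the same order, so the controls were the most scattered there too. Ezh1-het 1 was low as well, with a median of -0.48 over the members, against -0.18, -0.19 and -0.18 on the other Ezh1-het arrays. Of 5 Ezh2 probes, the one with the largest difference, picked for it, stood at -3.19 relative to control in the double-KO group, -3.53 in the Ezh1-het group and -3.41 in the Ezh2-KO group, while the other 4 lay between -0.58 and -0.22 over these groups. Where the probes lie relative to the deleted part was not examined. The Ezh1 probe stood at -4.47, -1.05 and 0.12 in the same order.

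Of the 28 measured members 5 were called in at least 1 comparison, and those called above control were Hoxd1 and Hoxc12. With 4 arrays a group, a member that was not called may still differ. A member was called where limma's adjusted p (Benjamini-Hochberg over all 15646 genes) was under 0.05, and log2 differences are knockout minus control unless stated, with the model's SE at n = 4 per group. In the double-KO group 2 members rose (Hoxc12 and Hoxd1) and 1 fell (Hoxb3), where 3.71% of all genes rose and 0.914% fell. In the Ezh1-het group 1 rose (Hoxd1) and 3 fell (Hoxa6, Hoxb3 and Hoxb5os), where 5.91% of all genes rose and 1.9% fell. In the Ezh2-KO group none rose and 1 fell (Hoxb5os), against backgrounds of 2.4% and 0.677%. At an unadjusted p under 0.05 in either direction, limma had 7 members in the double-KO group (25%, against 17.1% of all genes), 9 in the Ezh1-het group (32.1% against 25.4%) and 7 in the Ezh2-KO group (25% against 21.3%). Between the double-KO and Ezh2-KO groups 2 members were higher in the double-KO group (Hoxc12 and Hoxb5os) and none was lower, where 0.639% and 0.275% of all genes were called, and 8 members had an unadjusted p under 0.05 in either direction (28.6%, against 12.7% of all genes). Of the 10 calls over the 4 comparisons, 9 had groups whose arrays did not overlap. The calls were picked by their p, so this is not separate support for them, and the share among all called genes was not computed. The 23 members that were called in no comparison had log2 differences from control between -0.62 and 0.55.

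The median of the 28 members was -0.14 in the double-KO group, -0.15 in the Ezh1-het group and 0.04 in the Ezh2-KO group, beside 0.01, 0.05 and 0.06 over all genes tested. Between replicate arrays of a group the members' median had an SD of 0.18. With arrays centred on their median in place of loess, the medians of all genes moved to 0.38, 0.44 and 0.41 and those of the members to 0.35, 0.26 and 0.47, so both member medians below 0 turned sign. The members' median was then only slightly below that of all genes in the double-KO group (0.35 against 0.38). It stayed below in the Ezh1-het group (0.26 against 0.44) and lay above in the Ezh2-KO group (0.47 against 0.41). Against control, 4 members were higher in all 3 knockout groups (Hoxa2, Hoxb8, Hoxd1 and Hoxd9), 8 were lower in all 3 (Hoxa4, Hoxa6, Hoxa9, Hoxb3, Hoxb5, Hoxb5os, Hoxc4 and Hoxc8) and 16 were mixed. The 3 comparisons share their control arrays, so these signs are not independent. The share of all genes with the same sign in all 3 was not computed, so the counts cannot be set against it.

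**Figure D1:**
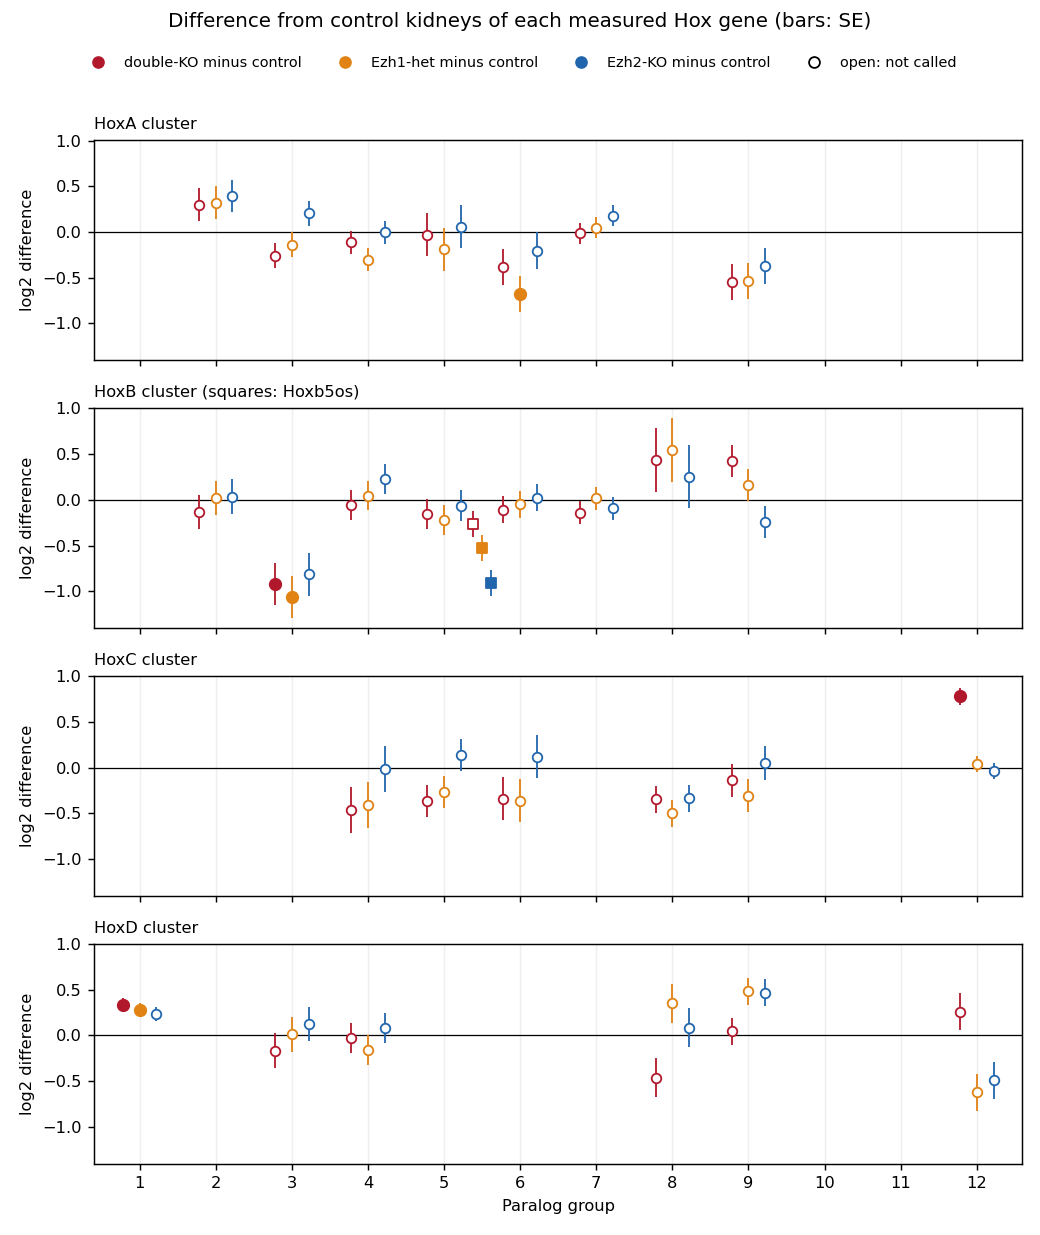
Log2 difference from control (y axis) of each measured Hox gene against its paralog group (x axis), in 4 panels by cluster, for the double-KO, Ezh1-het and Ezh2-KO groups; bars are the SE of limma's fit, n = 4 per group, filled symbols were called at an adjusted p under 0.05 and squares are Hoxb5os. Hoxc12 is at 0.78 in the double-KO group and near 0 in the others, Hoxb5os is at -0.91 in the Ezh2-KO group, and most open symbols lie near 0.

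Hoxd1, a group 1 gene, lies at the anterior end of HoxD and in mice is known from sensory neurons. Its probe was dim: it was well above background on 4 of 4 double-KO arrays, 3 of 4 Ezh1-het arrays, 2 of 4 Ezh2-KO arrays and 0 of 4 controls. Levels on arrays 1 to 4, the order used for every gene, were 0.34, 0.19, 0.28 and 0.30 in the double-KO group, 0.31, 0.16, 0.16 and 0.27 in the Ezh1-het group, 0.11, 0.06, 0.32 and 0.24 in the Ezh2-KO group, and 0.03, -0.04, -0.05 and -0.17 in the controls. No knockout array overlapped the controls. Hoxd1 was at least 1.259-fold higher in the double-KO group (0.33, SE 0.07, adjusted p = 0.0147) and at least 1.215-fold in the Ezh1-het group (0.28, SE 0.07, adjusted p = 0.0332), where "at least" refers to the background limit and not to sampling error. The Ezh2-KO group missed the threshold at 0.24 (SE 0.07, adjusted p = 0.092). The call in the Ezh1-het group ended without Ezh1-het 1, 2 or 4 or control 2, 3 or 4 (adjusted p between 0.0589 and 0.0964) and with median centring (0.17), and that in the double-KO group ended without control 4 (0.0525), without controls 2 and 3 (0.0746) and with only those 2 groups fitted (0.066).

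Hoxb1, which in the embryo marks a segment of the hindbrain, had mean log2 ratios of 0.01 in the double-KO group, -0.02 in the Ezh1-het group, -0.06 in the Ezh2-KO group and 0.01 in the controls, all not well above background. With neither side measured, no fold is given for it.

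Hoxc12 rose in the double-KO group and was called in no other group against control. It lies in the posterior part of HoxC, next to Hoxc13, a gene of hair and nail. Levels were 0.99, 1.01, 0.80 and 0.55 on the double-KO arrays, 0.14, 0.09, 0.04 and 0.12 on the Ezh1-het arrays, -0.03, 0.00, 0.03 and 0.07 on the Ezh2-KO arrays, and 0.10, 0.04, -0.04 and 0.14 on the controls. The probe was well above background on all 4 double-KO arrays and on 0 of the other 12. It therefore passed the filter, which asks for 4 arrays, only through that group. Its entry into the test depended on its level there. The lowest double-KO array lay above every other array, which is not separate support for the calls. Hoxc12 was at least 1.715-fold higher in the double-KO group than in controls (0.78, SE 0.09, adjusted p = 6.36e-05) and at least 1.761-fold higher than in the Ezh2-KO group (0.82, SE 0.09, adjusted p = 7.47e-05). Differences from control were 0.93 on slide 1 and 0.63 on slide 2. Neither call was lost under any alternative tried, and with median centring Hoxc12 was also called lower in the Ezh2-KO group (-0.34, adjusted p = 0.0423), where it was not well above background. Of its neighbours, Hoxc13 was at least 1.734-fold higher in the double-KO group than in controls (0.79, SE 0.10, adjusted p = 0.000118), and Hoxc11 differed by 0.52 (SE 0.25, adjusted p = 0.293). The Hoxc13 probe was likewise well above background on only 4 arrays, the least that the filter allows.

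**Figure D2:**
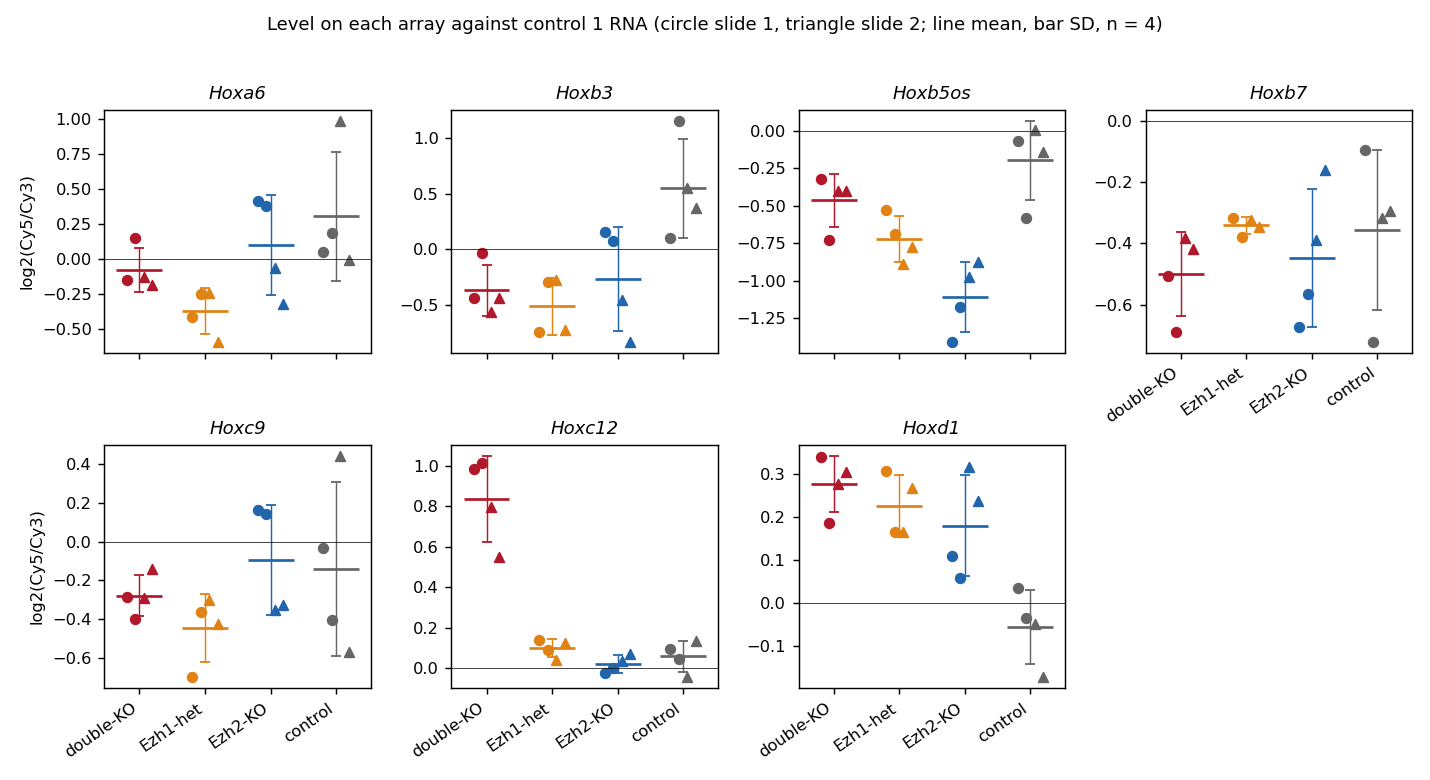
Level on each array as log2(Cy5/Cy3) (y axis) of the 5 called members and of Hoxb7 and Hoxc9, for the double-KO, Ezh1-het, Ezh2-KO and control groups; circles are slide 1, triangles slide 2, lines means and bars SD (n = 4). Hoxd1 separates every knockout array from the controls, Hoxc12 separates the double-KO arrays, and the control arrays of Hoxa6 and Hoxb3 spread widely.

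In HoxA, Hoxa6, which patterns the neck and upper trunk, fell in the Ezh1-het group. Levels were -0.14, 0.15, -0.13 and -0.19 in the double-KO group, -0.41, -0.25, -0.24 and -0.59 in the Ezh1-het group, 0.41, 0.38, -0.06 and -0.32 in the Ezh2-KO group, and 0.05, 0.19, 0.99 and -0.01 in the controls. The Ezh1-het arrays lay below all controls, and control 3 stood far above the other controls. The Ezh1-het difference was -0.68 (SE 0.20, 1.60-fold lower, adjusted p = 0.0488), with -0.45 on slide 1 and -0.91 on slide 2. The call ended without any of the 4 Ezh1-het arrays, control 2 or control 3 (adjusted p between 0.0721 and 0.147), and with median centring (-0.29). In the double-KO and Ezh2-KO groups Hoxa6 differed by -0.38 (SE 0.20, adjusted p = 0.353) and -0.20 (SE 0.20, 0.558).

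Hoxa9, a regulator of blood stem cells and of the trunk, has 2 probes that both read lower in every knockout group. The brighter probe differed by -0.55 in the double-KO group, -0.53 in the Ezh1-het group and -0.38 in the Ezh2-KO group (SE 0.20, adjusted p = 0.146, 0.104 and 0.279). The dimmer probe stood at -0.12, 0.04, -0.28 and -0.32 in the double-KO group, -0.53, -0.28, -0.09 and -0.33 in the Ezh1-het group, -0.09, -0.12, -0.19 and -0.51 in the Ezh2-KO group, and 0.19, 0.73, 0.21 and 0.24 in the controls. No knockout array of that probe reached the lowest control. Tested over all 34731 probes, the dimmer probe was called lower by 0.51, 0.65 and 0.57 in the same order (SE 0.13, adjusted p = 0.0466, 0.0113 and 0.0326). By the brighter probe, which stands for the gene in all counts here, Hoxa9 was not called.

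Hoxa2, Hoxa3, Hoxa4, Hoxa5 and Hoxa7 were called in no comparison. Hoxa2, which sets the identity of the second pharyngeal arch, was higher by 0.30, 0.32 and 0.39 in the double-KO, Ezh1-het and Ezh2-KO groups (SE 0.18, adjusted p = 0.419, 0.264 and 0.21), with control 2 at -0.80 and the other controls between -0.27 and 0.27. Hoxa3, needed for thymus and parathyroid, had probes that disagreed in sign in the double-KO group (-0.26 for the brighter and 0.02 for the dimmer, neither called). Hoxa4, Hoxa5 of the lung and trachea, and Hoxa7 differed from control by -0.30 to 0.18 over the 3 knockout groups.

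In HoxB, the noncoding Hoxb5os fell in the Ezh2-KO and Ezh1-het groups. By start it lies between Hoxb7 and Hoxb6, and no protein is known from it. Levels of the brighter of its 2 probes were -0.33, -0.73, -0.40 and -0.41 in the double-KO group, -0.53, -0.69, -0.89 and -0.77 in the Ezh1-het group, -1.41, -1.18, -0.98 and -0.87 in the Ezh2-KO group, and -0.07, -0.59, 0.00 and -0.14 in the controls. All Ezh2-KO arrays lay below every double-KO array and every control, while the Ezh1-het and control arrays overlapped through control 2.

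Hoxb5os fell by 0.91 in the Ezh2-KO group (SE 0.14, 1.88-fold lower, adjusted p = 0.00273) and by 0.52 in the Ezh1-het group (SE 0.14, adjusted p = 0.0351), and in the double-KO group the difference was -0.27 (adjusted p = 0.358). The double-KO group was 0.64 above the Ezh2-KO group (SE 0.14, adjusted p = 0.0419), with 0.76 on slide 1 and 0.52 on slide 2. The second probe differed from control by -0.38, -0.56 and -0.76 in the double-KO, Ezh1-het and Ezh2-KO groups, the last of which was called over all probes (adjusted p = 0.0368), and by 0.38 between the double-KO and Ezh2-KO groups (adjusted p = 0.421). On that probe control 4 stood at 0.97 and the other controls between -0.19 and -0.02. The Ezh2-KO call held when any array was left out and ended with median centring (-0.37) and with only those 2 groups fitted (adjusted p = 0.0535). With median centring the Ezh1-het difference turned to 0.09 (adjusted p = 0.791). The Ezh1-het call ended without Ezh1-het 2, 3 or 4 or control 1, 3 or 4 (adjusted p between 0.0667 and 0.0966), and the difference between the double-KO and Ezh2-KO groups lost its call without double-KO 1, 3 or 4 or Ezh2-KO 1, 2 or 3 (between 0.0561 and 0.127).

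None of its coding neighbours was called. Hoxb5, of the enteric neural crest, differed by -0.16, -0.22 and -0.06 in the double-KO, Ezh1-het and Ezh2-KO groups, and Hoxb6 by -0.11, -0.05 and 0.02. Hoxb7, expressed in the ureteric bud and known for the promoter that drives many ureteric bud transgenes, stood at -0.51, -0.69, -0.38 and -0.42 in the double-KO group, -0.32, -0.38, -0.32 and -0.35 in the Ezh1-het group, -0.67, -0.56, -0.39 and -0.16 in the Ezh2-KO group, and -0.10, -0.72, -0.32 and -0.29 in the controls. The groups overlapped, and Hoxb7 differed from control by -0.14, 0.02 and -0.09 (SE 0.13, adjusted p = 0.626, 0.955 and 0.691).

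Hoxb3, a hindbrain and pharyngeal gene, fell on its brighter probe in 2 groups. Levels were -0.44, -0.03, -0.57 and -0.44 in the double-KO group, -0.75, -0.30, -0.28 and -0.73 in the Ezh1-het group, 0.16, 0.07, -0.46 and -0.83 in the Ezh2-KO group, and 0.10, 1.16, 0.55 and 0.37 in the controls. The double-KO and Ezh1-het arrays lay below every control, while Ezh2-KO 1 lay above control 1, and control 2, whose median over the members was the lowest of the controls, was the highest array here. The differences were -0.92 in the double-KO group (SE 0.23, adjusted p = 0.0303), then -1.06 in the Ezh1-het group (SE 0.23, adjusted p = 0.0128) and -0.81 in the Ezh2-KO group (SE 0.23, adjusted p = 0.0653). The second probe differed by only -0.18, -0.16 and -0.14 (SE 0.06, not called), though its controls, between 0.20 and 0.23, lay above all 12 knockout arrays, between -0.04 and 0.14. Without controls 2 and 3 both calls of the brighter probe ended (-0.61 and -0.75), and the double-KO call also ended without double-KO 1, 3 or 4 or control 2 (adjusted p between 0.0744 and 0.107) with median centring (-0.46) and with only those 2 groups fitted (0.0533). Without Ezh2-KO 1 or control 1 the Ezh2-KO difference became a call (0.0491 and 0.0436).

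The other HoxB genes were not called. Hoxb8, known from microglia and grooming behaviour, was the most variable of them, with levels between -0.59 and 0.21 in the double-KO group, -1.20 and 0.36 in the Ezh1-het group, -1.07 and 0.21 in the Ezh2-KO group, and -1.25 and -0.36 in the controls. Its differences from control, 0.43, 0.55 and 0.25, had an SE of 0.35, and its other probe gave 0.57, 0.70 and 0.38 (SE 0.33). Hoxb9, of the thoracic skeleton, was 0.67 higher in the double-KO than in the Ezh2-KO group on its brighter probe (SE 0.18, adjusted p = 0.101) and 0.13 on its other probe (adjusted p = 0.631). Hoxb2 and Hoxb4 differed from control by -0.13 to 0.23.

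The HoxC genes of groups 4 to 9 were lower than control in the double-KO and Ezh1-het groups without passing the test. They include Hoxc4 and Hoxc5 of the neck, Hoxc6 and Hoxc8 of the forelimb level and Hoxc9 of the thorax, genes best known from motor neurons of the spinal cord. None was called, with differences of -0.46 to -0.14 in the double-KO group, -0.50 to -0.27 in the Ezh1-het group and -0.34 to 0.14 in the Ezh2-KO group. Hoxc8 came nearest to the threshold in the Ezh1-het group (-0.50, SE 0.15, adjusted p = 0.0538). Hoxc9 stood at -0.29, -0.40, -0.29 and -0.14 in the double-KO group, -0.70, -0.36, -0.30 and -0.43 in the Ezh1-het group, 0.17, 0.14, -0.35 and -0.33 in the Ezh2-KO group, and -0.03, -0.40, 0.44 and -0.57 in the controls. Its groups overlapped, with differences of -0.14, -0.30 and 0.05 (SE 0.18, adjusted p = 0.768, 0.311 and 0.897).

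In HoxD, Hoxd12, which shapes the digits, was called in no comparison. Levels were -0.01, 0.28, 0.12 and 0.64 in the double-KO group, -1.0, -0.25, -0.70 and -0.53 in the Ezh1-het group, -0.31, -0.42, -0.52 and -0.69 in the Ezh2-KO group, and -0.13, -0.26, 0.67 and -0.27 in the controls. Every double-KO array lay above every Ezh2-KO array, yet the difference of 0.75 was not called (SE 0.20, adjusted p = 0.113). Differences from control were 0.26, -0.62 and -0.49 in the double-KO, Ezh1-het and Ezh2-KO groups (SE 0.20, adjusted p = 0.574, 0.0719 and 0.183).

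Hoxd9 of the lumbar level differed by 0.05, 0.48 and 0.47 (SE 0.15, adjusted p = 0.908, 0.0564 and 0.0912), with control 2 at -0.80 the lowest array. Hoxd8 stood at -0.50, -0.84, -0.59 and -0.65 in the double-KO group, below all Ezh1-het arrays, and differed from control by -0.46, 0.35 and 0.09 (SE 0.21, none called). Its other probe gave -0.06, 0.67 and 0.35 (SE 0.22, none called). Hoxd3 of the first neck vertebra and Hoxd4 of the hindbrain differed by -0.17 to 0.13.

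The members varied together from array to array, though HoxD genes did so less than the members as a whole. Pairs of genes from different clusters were not summarised on their own. Once each group's mean was removed, the mean pairwise correlation across the 16 arrays was 0.45 among HoxA genes, 0.42 among HoxB genes, 0.38 among HoxC genes and 0.15 among HoxD genes, and 0.26 over all members, against 0.02 over 15631 genes tested with no missing value. These arrays share the Cy3 RNA and the loess step, and the value is a description of 16 arrays. The median of the HoxC genes was -0.55, -0.48, -0.39 and -0.23 on the double-KO arrays, -0.69, -0.32, -0.31 and -0.33 on the Ezh1-het arrays, 0.26, 0.19, -0.38 and -0.28 on the Ezh2-KO arrays, and 0.00, -0.28, 0.42 and -0.47 on the controls. Apart from Ezh1-het 1 and double-KO 1 and 2, which were lower, every knockout array lay within the range of the controls.

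**Figure D3:**
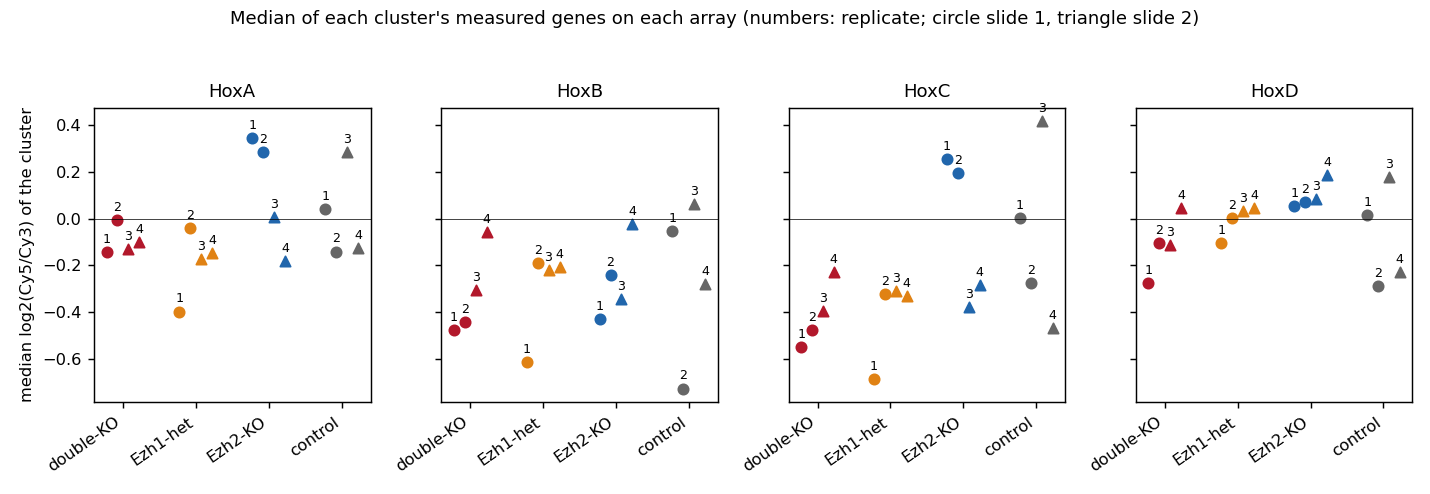
Median log2(Cy5/Cy3) of the measured coding genes of each cluster (y axis) on every array of the double-KO, Ezh1-het, Ezh2-KO and control groups; numbers are replicates, circles slide 1 and triangles slide 2. Ezh2-KO 1 and 2 lie at 0.26 and 0.19 for HoxC, above Ezh2-KO 3 and 4 at -0.38 and -0.28, and control 3 lies above the other controls in every panel.

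The Ezh2-KO group divided by slide. Arrays 1 and 2 of every group were on slide 1 and arrays 3 and 4 on slide 2. For Ezh2-KO minus control, 17 of 28 members had opposite signs on the 2 slides, 6 were positive on both and 5 negative on both, and the share with opposite signs was 60.7%, against 42% of all genes. The HoxC median was 0.44 on slide 1 and -0.27 on slide 2, and the HoxA median 0.28 and -0.19. In the double-KO group 2 of 28 members had opposite signs (7.14%, against 29.8% of all genes), with 6 positive and 20 negative on both. In the Ezh1-het group 6 of 28 had them (21.4%, against 28.6% of all genes), with 7 positive and 15 negative on both. A test of the slide by genotype interaction, added after seeing the data, called no member in any comparison by limma, with 6, 0 and 0 members at an unadjusted p under 0.05 for the Ezh2-KO, Ezh1-het and double-KO comparisons. Over all genes it called 2, 0 and 0, and 15.6%, 2.8% and 2.12% had an unadjusted p under 0.05, so the split in the Ezh2-KO comparison reached well past the Hox genes, where 6 of 28 is 21.4%. Hoxa3 had the lowest p of the members, and its Ezh2-KO difference was 0.78 higher on slide 1 than on slide 2 (SE 0.20, adjusted p = 0.169).

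Kidney epithelium markers divided by the same slides, and their part in the Hox values was not tested. For Ezh2-KO minus control, all 4 proximal tubule markers were negative on slide 1 and positive on slide 2 (median -2.24 and 0.95), and so were 6 of 7 measured ureteric bud and collecting duct markers (median -0.49 and 0.82). Lrp2, the endocytic receptor of the proximal tubule, differed by -2.37 on slide 1 and 1.19 on slide 2, and the epithelial keratin gene Krt8 by -1.73 and 1.59. The median of the proximal tubule markers was -2.70, -1.06, -0.48 and 0.24 on the Ezh2-KO arrays, and 0.16, 0.54, -2.10 and -0.21 on the controls. Ezh2-KO 1 and control 3, the lowest arrays of their groups for these markers, had medians of 0.06 and 0.25 over the Hox members, the highest of their groups, with Ezh2-KO 2 close at 0.05. The double-KO arrays were low for these markers as well, at -0.83, -2.14, -1.14 and -2.67 on arrays 1 to 4. Their medians over the Hox members were -0.37, -0.33, -0.29 and -0.10. The Ezh1-het arrays stood at 0.57, 0.08, -0.16 and -0.03 for these markers and at -0.48, -0.18, -0.19 and -0.18 over the Hox members. Control 2 was the highest control for these markers and the lowest over the Hox members, at -0.33. Ezh2-KO 4, the highest of its group for these markers, was at -0.17 over the Hox members, above Ezh2-KO 3 at -0.26. The median of the nephron progenitor markers was 0.01, -0.01, -0.50 and -0.50 on the Ezh2-KO arrays. It was -0.84, -0.49, -0.67 and -0.09 on the double-KO arrays, -0.96, -0.36, -0.56 and -0.34 on the Ezh1-het arrays, and -0.03, -0.02, 0.53 and -0.28 on the controls. Control 3 and double-KO 4 were the highest of their groups for that list and over the Hox members, and Ezh1-het 1 the lowest. Control 2 was the lowest control only over the Hox members.

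**Figure D4:**
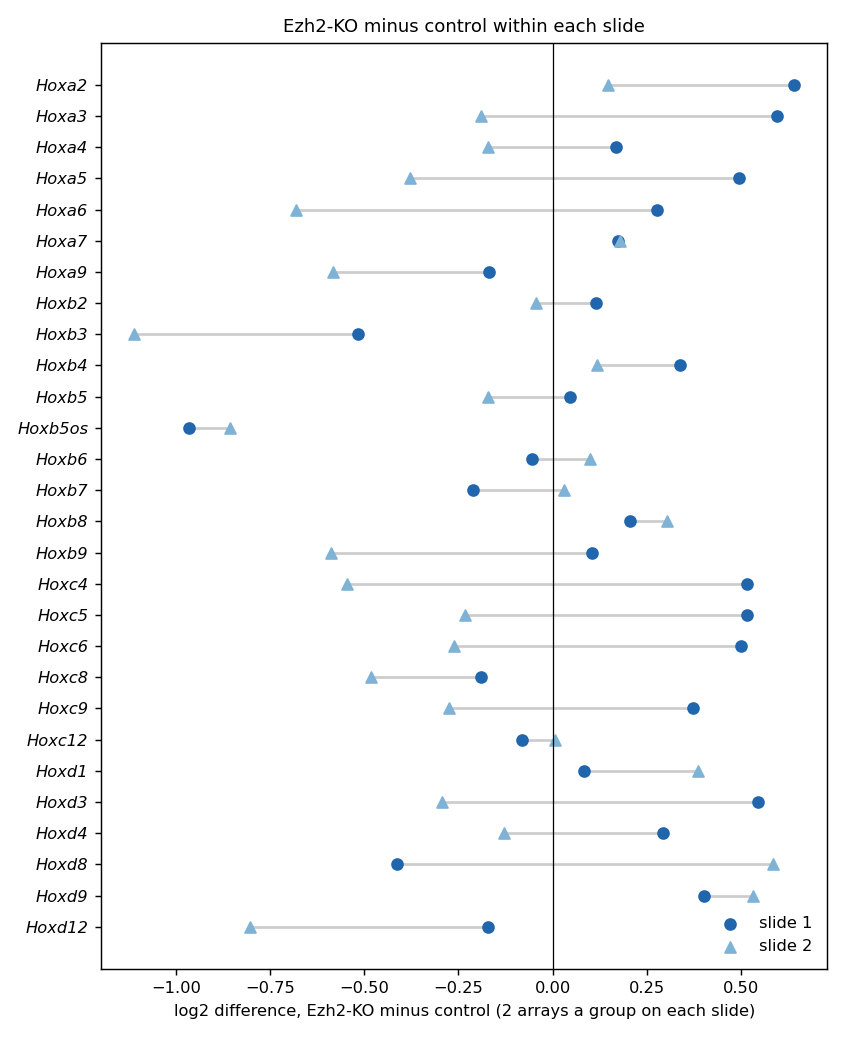
Log2 difference of Ezh2-KO minus control (x axis) for each of the 28 measured members (y axis), with circles for slide 1 and triangles for slide 2 (2 arrays a group on each). Hoxd9 lies above 0 and Hoxb5os below it on both slides, while 17 members lie on opposite sides of 0.

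Among the genes of groups 10, 11 and 13, rises were called only in group 13. Of these 10, all measured, 4 rose in the double-KO group (Hoxa13, Hoxb13, Hoxc13 and Hoxd13) and 1 fell (Hoxd11, -0.54, SE 0.14, adjusted p = 0.0345, lost with median centring at -0.21), and in the Ezh1-het group 3 rose and none fell. Hoxd13 was at least 5.518-fold higher and Hoxb13 at least 4.866-fold higher in the double-KO group than in controls. The genes of groups 10 and 11 differed from control by -0.54 to 0.52 in the double-KO group and -0.51 to 0.24 in the Ezh1-het group. Hoxd11 was the only one of them called. No call was made among the 10 in the Ezh2-KO group, where no gene had an unadjusted p under 0.05 either. Both members of group 12 lie next to a group 13 gene, and Hoxc12 was called with its neighbour Hoxc13 while Hoxd12 beside Hoxd13 was not. Hoxc12 and Hoxc13 each passed the filter with only 4 arrays well above background.

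Cofactors bind DNA together with Hox proteins, and of 8 measured Meis, Pbx and Pknox genes 2 rose in the double-KO group, 1 rose and 1 fell in the Ezh1-het group and 1 rose in the Ezh2-KO group. Meis1, a cofactor that is also a marker of kidney stroma here, rose by 0.86 in the double-KO group (SE 0.17, adjusted p = 0.00514), by 0.56 in the Ezh1-het group (adjusted p = 0.0489) and by 0.80 in the Ezh2-KO group (adjusted p = 0.0173). Levels of Meis1 were 1.01, 0.72, 1.01 and 0.93 in the double-KO group, 0.35, 0.66, 0.87 and 0.61 in the Ezh1-het group, 1.01, 0.89, 0.95 and 0.58 in the Ezh2-KO group, and 0.14, -0.47, 0.05 and 0.51 in the controls. Every double-KO and Ezh2-KO array lay above every control, and Ezh1-het 1 lay below control 4. Pbx3 rose by 0.43 in the double-KO group (SE 0.09, adjusted p = 0.00982). Meis2 fell by 0.73 among Ezh1-het kidneys (SE 0.19, adjusted p = 0.0336), and with median centring this became -0.10.

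Retinoic acid induces the anterior Hox genes, and of 17 measured genes of its synthesis, binding and breakdown or of Hox inducers, 3 rose in the double-KO group, 5 rose in the Ezh1-het group, none fell in either, and limma called none in the Ezh2-KO group (4 at an unadjusted p under 0.05). The synthesising enzyme gene Aldh1a3 stood at 1.20, 0.51, 1.07 and 1.02 in the double-KO group, 0.56, 0.11, 0.36 and 0.79 in the Ezh1-het group, -0.37, -0.22, 0.36 and 0.26 in the Ezh2-KO group, and -0.02, -0.82, -0.96 and -0.23 in the controls. It rose by 1.45 (SE 0.23, adjusted p = 9e-04) in the double-KO group and 0.96 (adjusted p = 0.0188) in the Ezh1-het group, and both groups lay clear of the controls. The binding protein gene Crabp1 rose by 0.89 and 1.01 in those 2 groups (SE 0.24, adjusted p = 0.0478 and 0.0218), and the breakdown enzyme gene Cyp26a1 by 0.54 and 0.53 (SE 0.13, adjusted p = 0.0229 and 0.0231). Cyp26a1 lost both calls with median centring (0.45 and 0.38). In the Ezh1-het group the receptor gene Rarg (0.55, SE 0.16) and the Hox activator gene Cdx1 (0.38, SE 0.11) rose as well.

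Trithorax and MLL proteins oppose Polycomb at Hox genes, and limma called none of the 11 measured in any comparison, with 1, 2 and 2 at an unadjusted p under 0.05 in the double-KO, Ezh1-het and Ezh2-KO groups. Of 15 noncoding RNAs of the Hox clusters 6 were measured, and Hoxb5os was the only one called. Hottip, Hoxa11os, Hoxd3os1, Halr1 and Haglr differed from control by -0.10 to 0.23, with none, none and 1 at an unadjusted p under 0.05 in those groups.

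Markers of the kidney's cell types differed between arrays and genotypes, and their part in the Hox results was not tested. Proximal tubule markers, of which all 4 were measured, differed widely between arrays, though limma called none. Their array median ran from -2.67 to -0.83 in the double-KO group, -0.16 to 0.57 in the Ezh1-het group, -2.70 to 0.24 in the Ezh2-KO group and -2.10 to 0.54 in the controls, and the median of their differences from control was -1.25 in the double-KO group, 0.66 in the Ezh1-het group and -0.55 in the Ezh2-KO group. The phosphate transporter gene Slc34a1 differed by -2.10 in the double-KO group (SE 0.62, adjusted p = 0.0701), the one marker of this list with an unadjusted p under 0.05 in any knockout group against control. Of 6 nephron progenitor markers, all well above background on every array, 2 fell in the double-KO group, 3 in the Ezh1-het group and 2 in the Ezh2-KO group. The array median of that list ran from -0.84 to -0.09 in the double-KO group, -0.96 to -0.34 in the Ezh1-het group, -0.50 to 0.01 in the Ezh2-KO group and -0.28 to 0.53 in the controls. Cited1 fell by 0.90, 0.79 and 0.69 in the double-KO, Ezh1-het and Ezh2-KO groups (SE 0.13), Crym by 0.85, 0.90 and 0.66 (SE 0.17), and Meox1 by 0.90 in the Ezh1-het group (SE 0.21). All these calls were lost with median centring, at -0.31, -0.18 and -0.15 for Cited1, -0.16, -0.23 and -0.09 for Crym and -0.51 for Meox1. The progenitor markers did not all fall: Six2, Eya1 and Itga8 were called in no knockout group. In the double-KO, Ezh1-het and Ezh2-KO groups Six2 differed by -0.39, -0.49 and -0.07 (SE 0.26) and Eya1 by -0.15, -0.30 and -0.20 (SE 0.13). Itga8 differed by 0.04, -0.10 and 0.43. The 6 stroma markers, all measured, ran from -0.28 to 0.47, -0.08 to 0.70, 0.02 to 0.92 and -0.79 to 0.40 in the same order of groups, and 2, 1 and 1 rose in the knockout groups. These were Meis1 in all 3 and Foxd1, a transcription factor gene of the cortical stroma, in the double-KO group (0.72, SE 0.20, adjusted p = 0.045), where its arrays overlapped the controls. Of 3 podocyte markers 2 rose in the Ezh1-het group (Nphs1 by 0.94, SE 0.21, and Podxl by 0.94, SE 0.20) and none was called in the other groups. The 3 measured of 4 erythroid markers had list medians from -3.18 to -0.13 in the double-KO group, -0.15 to 0.88 in the Ezh1-het group, 0.07 to 0.87 in the Ezh2-KO group and -0.67 to 0.23 in the controls. None was called by limma, and all 3 had an unadjusted p under 0.05 in the double-KO group. All 5 neuron and neural crest markers were measured and limma called none, with 1, 0 and 2 at an unadjusted p under 0.05 in the double-KO, Ezh1-het and Ezh2-KO groups. Of the measured ureteric bud and collecting duct, ureter mesenchyme, endothelium, macrophage and adrenal markers limma called none, with at most 1 of a list at an unadjusted p under 0.05 in a knockout group against control. None of the 4 limb and paraxial mesoderm markers (Tbx4, Tbx5, Myod1 and Myog) was measured.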

How the data were processed

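The 16 arrays were 2-colour Agilent arrays of 62976 features, of which 3671 are controls, scanned with Feature Extraction 10.7.3.1, per the file headers, on 2 slides (arrays 1 and 2 of each group on slide 1, arrays 3 and 4 on slide 2). The deposited scanner files give the intensity of each spot, on a linear scale, in Cy5 (the sample) and Cy3 (RNA of control 1 on every array, with no dye swap, per the labels). The deposited value table holds log10 ratios, which differ from the scanner's own by at most 0.005, and every column has a median of 0. From the files, normexp background correction (offset 50) was run on the median spot and background signals, followed by loess within arrays, with control spots at weight 0 and outlier spots left out. Replicate spots were averaged. A probe was kept if its Cy5 signal was marked well above background on 4 or more of the 16 arrays (34731 of 56605), and kept probes were named by accession through the RefSeq gene table of GRCm38.p6, and the brightest probe stood for each of 15646 genes. One limma fit (3.58.1, R 4.3.3, two-sided, Benjamini-Hochberg threshold 0.05) held all 16 arrays, with 4 per group, and this number limits the precision. Scripts were tested on simulated data. Where 1 of the compared groups was not well above background on any array, the fold is printed as "at least". It is the lower of the model's fold and a bound from the dimmest probe well above background on each array. For every fold printed so here, the model's fold was the lower. The test design had assumed mean signals, and the files used here hold medians.

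Every member reported is named, with full values for those called in any comparison and for the 3 brightest (Hoxb5os, Hoxb7 and Hoxc9). Genes outside the set are named where called on a list or as markers. Some genes that the rule or the lists would take are not reported here. Members and lists were chosen with earlier results of these data known. Alternatives were the deposited table, median centring without loess, no filter, other probe rules, another variance model, 2 groups fitted alone, slide or replicate number as a block, each array left out, and controls 2 and 3 left out.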

Additional observations from a re-analysis of the deposited data

Results flagged for a closer look

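In 13 of 112 sets of 4 arrays (a member in a group), 1 array stood farther from the other 3 than Dixon's 95% critical value allows, where chance gives about 5% for normal values. The share of such sets over all genes was not computed, so the count cannot be read as particular to the Hox members. Ezh1-het 1 accounts for 9 of them. It was the lowest Ezh1-het array for Hoxa2 at -0.1324 (the others from 0.241 to 0.2714), Hoxb4 at -0.3321, Hoxb5 at -0.731, Hoxb6 at -0.4423, Hoxb8 at -1.203 (the others from 0.2457 to 0.3622), Hoxc5 at -0.6217, Hoxc6 at -0.8804 and Hoxd4 at -0.366, and the highest for Hoxd8 at 0.5234. Control 2 was the lowest control for Hoxb8 at -1.254 and for Hoxb9 at -1.025. Control 3 was the highest control for Hoxd12 at 0.6668, and double-KO 2 was the highest double-KO array for Hoxa6 at 0.1539. Genes of a cluster share their arrays and are not independent, and control 2 also had the weakest Cy5 signal.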

How the results depend on the processing

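Across the alternatives the number of members called was small and depended on the fit. With median centring it was 5 in the Ezh2-KO group and 1 between the double-KO and Ezh2-KO groups, and the members' medians were 0.35, 0.26 and 0.47 in the double-KO, Ezh1-het and Ezh2-KO groups. There the Hoxb5os difference in the Ezh1-het group turned to 0.08849. With only the 2 groups fitted, limma called 1 member in the double-KO group, 1 in the Ezh1-het group, 0 in the Ezh2-KO group (5 at an unadjusted p under 0.05) and 1 between the double-KO and Ezh2-KO groups. The deposited value table gave 2 in the Ezh1-het group and 1 between the double-KO and Ezh2-KO groups, and the mean of a gene's probes and the trended robust variance each gave 1 there. In the Ezh2-KO group 2 were called, against 1 as reported, with the mean of a gene's probes, with each probe tested on its own and with slide as a block. Without controls 2 and 3, limma called 1 in the double-KO group and 0 in the Ezh1-het group (6 at an unadjusted p under 0.05). Leaving out each array in turn gave 2 to 3 members in the double-KO group, 1 to 4 in the Ezh1-het group, 1 to 3 in the Ezh2-KO group and 1 to 3 between the double-KO and Ezh2-KO groups. The Ezh2-KO count was 3 without control 1 and 2 without Ezh2-KO 1. The count between the double-KO and Ezh2-KO groups was 1 without double-KO 1, 3 or 4 or Ezh2-KO 1, 2 or 3, and the Ezh1-het count was 1 or 2 without any 1 Ezh1-het array or control 2 or 3. The cause was not tested. Over all genes the calls ran from 441 to 5364 in the double-KO group, 235 to 8037 in the Ezh1-het group, 59 to 6839 in the Ezh2-KO group and 66 to 234 between the double-KO and Ezh2-KO groups, against 723, 1222, 482 and 143 as reported. Same-numbered arrays did not deviate together (r from -0.478 to 0.515, over 0.1 in 8 of 24 pairs, with 4 of 24 matching their own number best). With the replicate number as a block, 1 member was called between the double-KO and Ezh2-KO groups, since Hoxb5os lost its call (adjusted p = 0.0505), and 2 were called in the Ezh2-KO group, where Hoxb3 passed (0.0346). Signal over background limits Hoxb1, Hoxc12 and Hoxd1.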
